A study of Mus musculus with 14 samples.

Results

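The glutathione enzymes and glyoxalase of fat examined here are 9 of the 12393 genes named on the array: the peroxidases Gpx1, Gpx3 and Gpx4, the transferases Gsta3, Gsta4, Gstm1, Gstm2 and Mgst1, and the glyoxalase Glo1. Every probe set annotated to them was taken, a probe set being a group of short probes against a transcript. That gave 17 probe sets of the 22626 on the array that were not controls. After the dimmest 40% of probe sets were left out (mean signal over all arrays under 493.6), 16 of the 17 remained among 13576 tested. The genes were listed with earlier results of these data in view, and some were chosen by their measured differences: Gsta3 and Gpx3 had been among the genes of smallest p in UC against CC. Their differences between UC and CC are therefore given as descriptions, with no p-value beyond their place in counts of members. The other comparisons of Gsta3 and Gpx3 reuse the UC or the CC arrays, so their p-values are not free of that choice.

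RNA of epididymal fat, a white fat depot beside the epididymis, was hybridised to single-channel Affymetrix mouse arrays, 1 array for each of 14 mice. All came from the ICR strain, carried the label male and were 3 weeks of age. The UC mice (n = 5) came from dams whose food was cut by 50% in pregnancy and given freely while they nursed. For the UU mice (n = 4) the 50% cut continued through suckling, and for the CC mice (n = 5) the dams ate freely in both periods. The undernourished animal is thus the dam, and pups of UU and UC share the prenatal cut. The title of the series names accelerated growth after birth in mice of low birth weight, the setting in which UC was compared with the other groups. The labels do not say which mice were littermates, so p-values take every array as independent and measure only the spread between these arrays.

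Glutathione is the main small thiol of cells. Glutathione peroxidases, several of them selenoproteins, use it to reduce peroxides, and glutathione transferases join it to reactive aldehydes and other electrophiles that form when lipids oxidise. Glyoxalase 1 converts the adduct of glutathione and methylglyoxal, a reactive by-product of glycolysis, in the first step of its disposal. In fat these enzymes act beside stores of lipid that can be oxidised, and several of their genes are known targets of the stress-responsive factor Nrf2.

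Promoter sequence is shown for Gsta3, Gpx3 and Glo1, the members with the differences described most fully, and for Mgst1, because it shares with Gsta3 a short match to the site that Nrf2 binds. Each sequence runs 5′ to 3′ on the gene's strand from 250 bases before the start to 50 after it, from RefSeq on GRCm38.p6. Capitals mark the letters TGACNNNGC, the core of the antioxidant response element, searched on both strands. The Gsta3 sequence is chr1:21240335-21240634 on the plus strand, Mgst1 chr6:138140277-138140576 on the plus strand, Gpx3 chr11:54902604-54902903 on the plus strand and Glo1 chr17:30612610-30612909 on the minus strand.
Gsta3: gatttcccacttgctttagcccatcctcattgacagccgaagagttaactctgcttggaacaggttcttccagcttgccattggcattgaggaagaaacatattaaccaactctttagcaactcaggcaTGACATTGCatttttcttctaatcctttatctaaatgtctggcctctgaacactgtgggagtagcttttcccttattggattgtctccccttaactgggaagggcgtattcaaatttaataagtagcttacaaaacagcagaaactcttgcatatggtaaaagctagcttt
Mgst1: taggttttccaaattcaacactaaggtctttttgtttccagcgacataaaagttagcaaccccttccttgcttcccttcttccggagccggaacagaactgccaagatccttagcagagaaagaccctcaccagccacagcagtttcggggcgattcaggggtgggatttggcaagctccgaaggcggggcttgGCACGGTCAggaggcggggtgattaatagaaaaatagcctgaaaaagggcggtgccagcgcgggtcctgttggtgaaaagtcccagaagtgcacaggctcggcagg
Gpx3: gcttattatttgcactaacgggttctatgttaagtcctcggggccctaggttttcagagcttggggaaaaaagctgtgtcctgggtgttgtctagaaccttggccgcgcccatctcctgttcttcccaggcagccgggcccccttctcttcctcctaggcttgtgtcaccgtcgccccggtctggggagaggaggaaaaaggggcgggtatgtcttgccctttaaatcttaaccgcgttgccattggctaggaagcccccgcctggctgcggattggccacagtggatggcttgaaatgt
Glo1: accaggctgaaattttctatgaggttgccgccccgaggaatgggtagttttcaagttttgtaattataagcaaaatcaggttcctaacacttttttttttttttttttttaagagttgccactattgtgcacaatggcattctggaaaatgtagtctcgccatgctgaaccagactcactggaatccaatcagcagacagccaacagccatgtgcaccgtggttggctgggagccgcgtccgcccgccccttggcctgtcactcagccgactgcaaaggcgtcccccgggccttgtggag
The match of Gsta3 read TGACATTGC, its first base 121 before the start, and that of Mgst1 lay on the opposite strand as GCACGGTCA, its first base 56 before the start. These letters stood in 12.4% of the 32851 mouse promoters of this length and in 2 of the 13 promoters listed for 8 of the 9 genes. The AP-1 letters TGANTCA, which share the TGA with that core and could overlap it, were in 7.81% of all promoters and in 0 of the 13. The GC box letters GGGCGG were in 35.7% of all promoters and in 7 of the 13, those of Glo1, Gpx1, Gpx3, Gpx4 and Mgst1. The motifs were chosen with the results known, and a match of letters is a description, not a site.

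Some arrays stood apart. Gpx5, a peroxidase gene of epididymal epithelium that is no member here, had signals of 409.6 to 1155.1 on 4 arrays (UC replicates 2 and 5, CC replicates 2 and 4) and of 5711 to 69624 on the other 10, which include all UU arrays. Xist, transcribed from the inactive X chromosome of females, was at 9137 in UC replicate 5 and 14479 in CC replicate 2 and at 80.1 or less elsewhere, which goes against the label of male. Eif2s3y, a gene on the Y chromosome, had signals of 7.9 and 58.6 on these arrays, against 1235 to 2234 elsewhere. Alb, the albumin gene of liver, reached 25660 in UC replicate 2. The 3′/5′ ratio, on the log2 scale the mean over Gapdh and Actb of 3′ minus 5′ signal and higher in degraded RNA, was 1.63 in UC replicate 1, 1.59 in UC replicate 4 and 2.10 in UU replicate 3, against 0.40 to 1.08 on the other 11. Of 12 white adipocyte markers, 10 were on the array and all 10 passed the filter, Fabp4 and Adipoq being the brightest. All 18 macrophage markers passed too, so passing the filter does not single out a tissue. The mean log2 level of the white adipocyte markers ran from 13.78 to 14.60 in UC, 12.80 to 13.72 in UU and 13.77 to 14.63 in CC. In tissue RNA of this kind, fewer cells of a type and less RNA per cell cannot be told apart.

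Of the 16 member probe sets, 1 passed limma's test in any comparison. The median size of their log2 differences, whatever the sign, was 0.14 in UC against CC and 0.41 in UU against CC, and 0.49 for UC over UU. The probe set that passed was Glo1 1451240_a_at, lower in UC than in UU. Of the members, 0 of 16 in UC against CC had a limma adjusted p under 0.05, where 0% of all probe sets were higher and 0% lower by that rule. The unadjusted p was under 0.05 for 2 higher member probe sets (Gsta3 and Gpx4) and 1 lower (Gpx3), with backgrounds of 4.13% and 5.1%. In UU against CC, 0 of 16 members passed limma's adjusted p, beside 0% higher and 0% lower over all probe sets. Unadjusted, 3 member probe sets were higher (of Gsta3 and Glo1) and 1 lower (of Gpx4), with backgrounds of 7.9% and 8.05%. In UC against UU, limma called 54 probe sets higher (0.398%) and 6 lower (0.0442%), and of the 16 members 0 higher and 1 lower. Unadjusted, 2 member probe sets were higher, both of Gpx4 (background 7.75%), and 5 lower, of Glo1, Gstm1 and Gpx3 (background 8.45%). Nothing is read from these counts about the set, because its members were picked with the results known. Gsta3 and Gpx3 were picked by UC against CC itself. The counts are of probe sets, and probe sets of the same gene are not separate genes.

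The median log2 difference over the 16 member probe sets was -0.09 in UC against CC, where it was -0.02 over all probe sets tested. It was 0.10 in UU against CC, beside 0.04 over all, and -0.14 in UC against UU, beside -0.07 over all. Members above 0 numbered 5, 8 and 8 of 16 in the order just given. By the brightest probe set of each of 8281 genes, 49.1%, 56.4% and 42.1% were above 0, a count of genes and not of probe sets. These comparisons share arrays, so their values are set side by side and not related to each other.

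**Figure D1:**
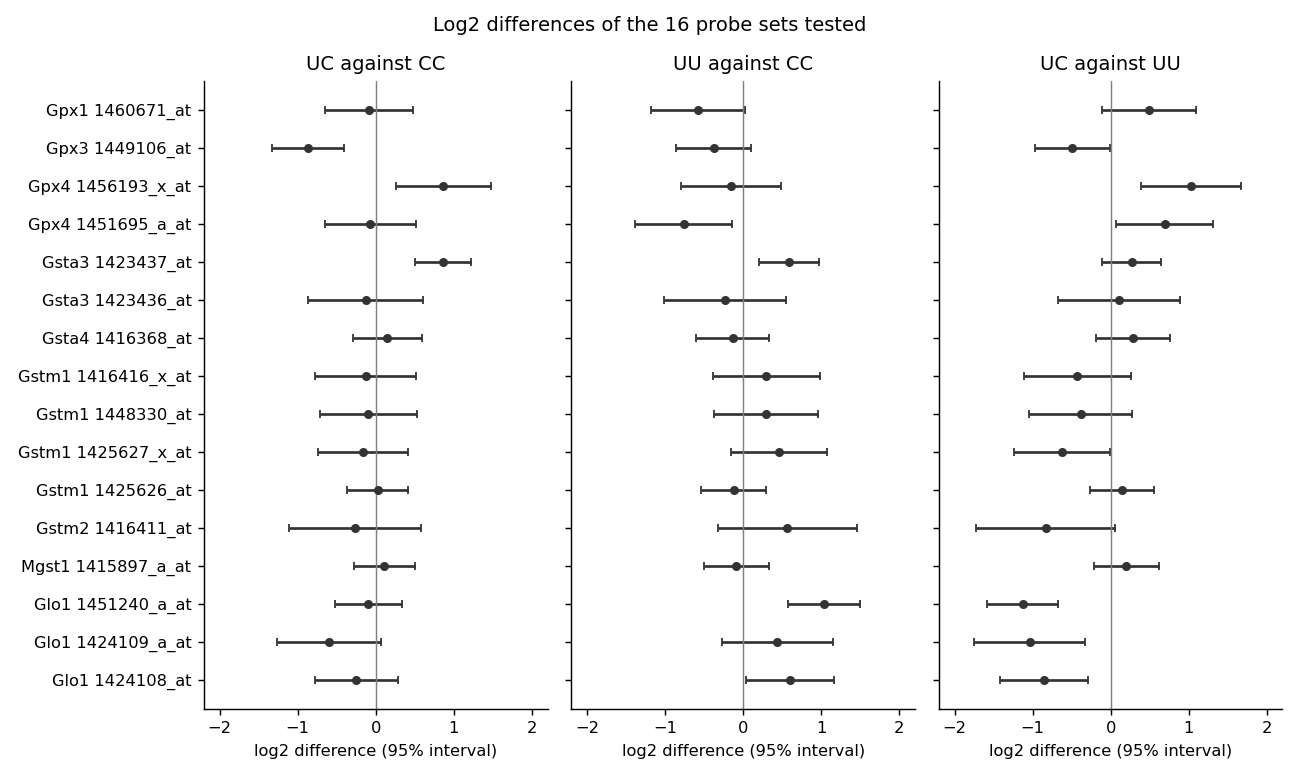
Log2 differences (x axis) of the 16 member probe sets tested (rows) in UC against CC, UU against CC and UC against UU, as points with 95% intervals from the limma fit of all 14 arrays; values right of 0 are higher in the first-named group. The intervals for UC against CC are descriptions, and Glo1 1451240_a_at in UC against UU, at -1.13, is the point that passed adjustment.

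Among the peroxidases, Gpx3 had its lowest mean in UC. Gpx3 (chr11:54902854-54910387) encodes the secreted glutathione peroxidase of plasma, made by adipocytes and kidney among other tissues. Its probe set 1449106_at had signals of 6553, 9764, 5939.6, 5859.5 and 4207 in UC, 10569, 8624, 7285 and 8859 in UU, and 13625, 15650.1, 10481, 8657 and 9957 in CC. UC replicate 2 was the highest of its group and lay above the lowest CC array, so UC and CC overlapped by that array, while UU replicates 2 and 3 lay below every CC array and the other 2 UU arrays inside the CC range. The mean signal was 6465 ± 2039 in UC, against 11674 ± 2876 in CC (SD, n = 5 for either), and the log2 difference, on the scale of log2(signal + 32), was -0.87 ± 0.21 (SE), or 0.548-fold. Without the 2 arrays with Xist signal the difference was -0.61, and without the 4 arrays low in Gpx5 it was -0.88.

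For Gpx3 in UU the mean was 8834 ± 1348 (SD, n = 4), which gave a log2 difference from CC of -0.38 ± 0.23 (limma adjusted p = 0.415). In UC against UU it was -0.49 ± 0.23 (limma adjusted p = 0.302), and UC replicate 2 lay above 3 of the 4 UU arrays while the rest of UC lay below all of UU.

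Gpx1 (chr9:108339080-108340342) encodes the abundant peroxidase of cytosol and mitochondria. Probe set 1460671_at was at 8977, 14127, 6810.3, 12933 and 12733 in UC, 10961, 8508, 4510.1 and 8003 in UU, and 10282, 15445, 8218, 15751 and 9380.0 in CC. All 3 groups overlapped. Its log2 difference was -0.09 ± 0.27 in UC against CC and -0.58 ± 0.28 in UU against CC (limma adjusted p = 0.328). UC against UU gave 0.49 ± 0.28 (limma adjusted p = 0.395). The 4 arrays low in Gpx5 were at 12733 to 15751, against 4510.1 to 12933 on the other 10, of which only UC replicate 4 overlapped them. Without the 4 arrays low in Gpx5, UU against CC gave -0.28.

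Gpx4 (chr10:80047166-80056439) encodes the peroxidase that reduces lipid hydroperoxides within membranes. Its probe set 1456193_x_at was at 13290.0, 18526, 9804, 27808 and 15466 in UC, 4747, 10526, 9234 and 8155 in UU, and 9958, 12487, 10213, 6437 and 6272 in CC. Each UC array but UC replicate 3 was above every UU and CC array. The log2 difference was 0.87 ± 0.29 in UC against CC and -0.16 ± 0.30 in UU against CC (limma adjusted p = 0.811). Between UC and UU it was 1.03 ± 0.30 (limma adjusted p = 0.143).

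The other Gpx4 probe set, 1451695_a_at, lay near 0 in UC against CC, where the first did not, at -0.07 ± 0.28. In UU against CC, where the first gave -0.16 ± 0.30, 1451695_a_at gave -0.76 ± 0.29 (limma adjusted p = 0.232). In UC against UU it gave 0.69 ± 0.29 (limma adjusted p = 0.264), on the same side as the first. Its signals ran from 8247 to 18297 in UC, 4133 to 12026 in UU and 9785 to 15095 in CC. The ending x marks a probe set in which some probes can match other transcripts, so the level of Gpx4 by 1456193_x_at is uncertain.

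**Figure D2:**
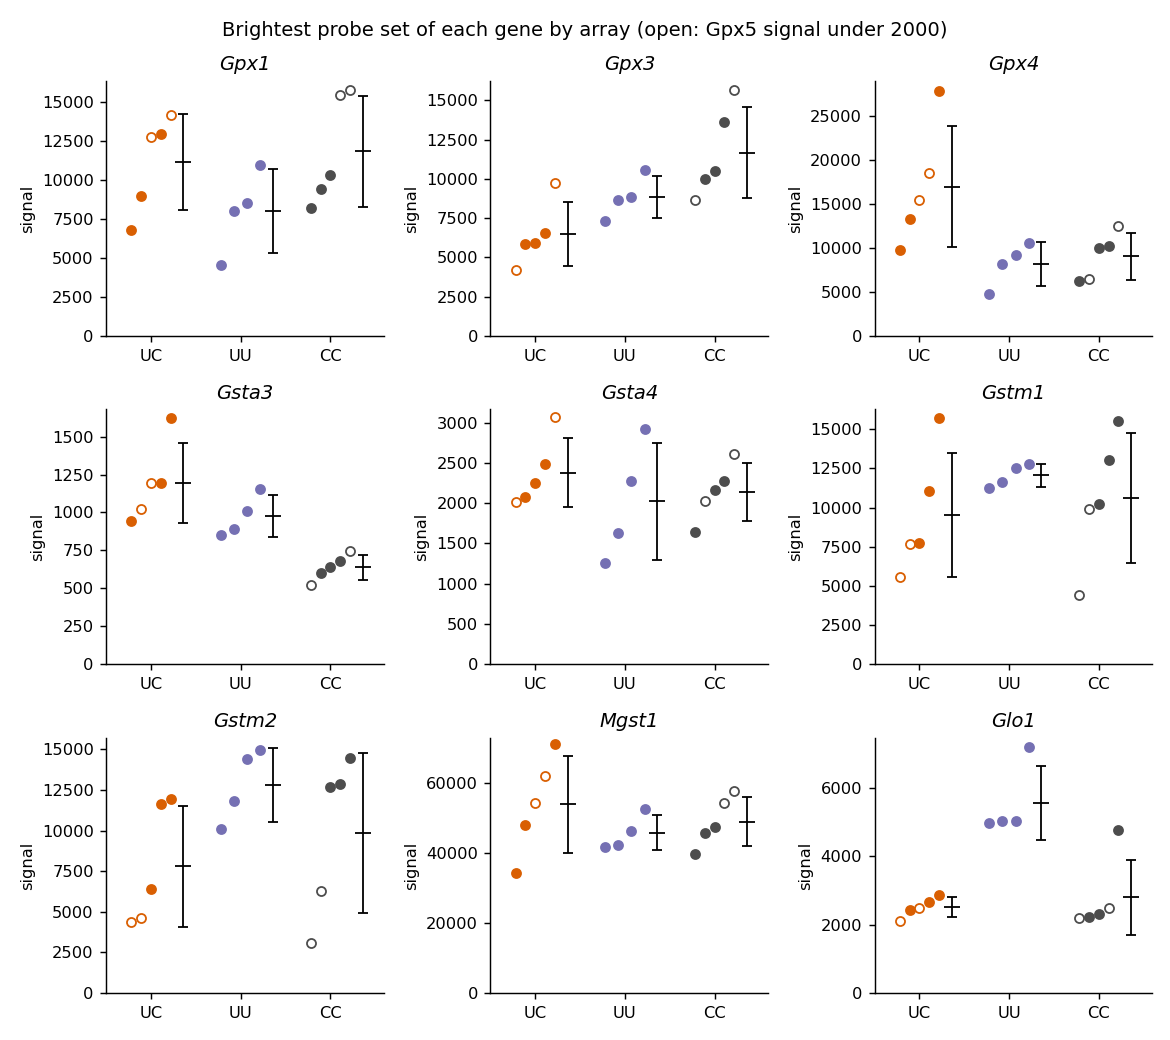
Signal (y axis, linear) of the brightest probe set of each of the 9 genes, a point for each array of UC, UU and CC (x axis), with the mean and SD beside each group; open points are the 4 arrays with a Gpx5 signal under 2000. All 5 UC points of Gsta3 and all 4 UU points of Glo1 lie above every CC point, and the open points of Gstm2 lie below all filled ones.

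Among the transferases, Gsta3 had higher signals on every UC and UU array than on any CC array by 1 of its 2 probe sets. Gsta3 (chr1:21240565-21265575) encodes an alpha-class transferase that, in mouse liver, detoxifies the epoxide of aflatoxin. Probe set 1423437_at was at 1196, 1193, 944.4, 1623 and 1023 in UC, 854.9, 891.3, 1007 and 1156 in UU, and 599.4, 525.4, 641.9, 744.7 and 681.7 in CC. The lowest UC and the lowest UU array were above the highest CC array, and UC overlapped UU. In UC against CC the groups did not overlap for 1 of 16 member probe sets on the higher side, 1423437_at itself, and for 0 on the lower. The backgrounds were 0.899% and 0.943% of all probe sets. In UU against CC the count was 2 higher, this probe set and 1 of Glo1, and 0 lower, with backgrounds of 4.17% and 3.6%. Gsta3 was chosen by its difference between UC and CC, so nothing is read from these counts.

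The mean signal of Gsta3 1423437_at was 1196 ± 262 in UC, against 639 ± 82.9 in CC (SD, n = 5 for either), and the log2 difference was 0.86 ± 0.17, or 1.81-fold. In UU it was 977 ± 136 (SD, n = 4), a log2 difference from CC of 0.59 ± 0.18 (limma adjusted p = 0.166). UC against UU gave 0.27 ± 0.18 (limma adjusted p = 0.467). Over 30 alternative fits each, the log2 difference ran from 0.70 to 0.93 in UC against CC and from 0.51 to 0.65 in UU against CC, and the adjusted p of UU against CC stayed at 0.113 or more.

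The dimmer Gsta3 probe set, 1423436_at, did not follow. It was at 432.6 to 840.1 in UC, 230.3 to 1179 in UU and 490.6 to 1012 in CC, with log2 differences of -0.13 ± 0.35 in UC against CC and -0.23 ± 0.37 in UU against CC (limma adjusted p = 0.767). The UC against UU value was 0.10 ± 0.37 (limma adjusted p = 0.91). Without UU replicate 3, UU against CC gave 0.23 and UC against UU -0.35. Its lowest arrays were UU replicate 3 and UC replicate 1, which are among the 3 with the highest 3′/5′ ratio.

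Gsta4 (chr9:78191966-78209349) encodes the transferase with high activity towards 4-hydroxynonenal, an aldehyde from oxidised lipids. Probe set 1416368_at ran from 2009 to 3071 in UC, 1262 to 2919.9 in UU and 1636 to 2613 in CC, and the groups overlapped widely. The log2 differences were 0.15 ± 0.21 in UC against CC and -0.14 ± 0.22 in UU against CC (limma adjusted p = 0.777). For UC against UU it was 0.29 ± 0.22 (limma adjusted p = 0.533). For UU against CC the 95% interval was -0.61 to 0.34, so a difference of this size in either direction is not excluded by the fit.

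Gstm1 (chr3:108012250-108017973) and Gstm2 (chr3:107981702-107986420) are neighbouring mu-class genes of similar sequence, and their probe sets may share signal. The brightest of the 4 Gstm1 probe sets, 1416416_x_at, was at 15685, 7695, 11052, 7743 and 5574 in UC, 12535, 12798, 11272 and 11629 in UU, and 15507, 4407, 10233, 9886 and 13024 in CC. The UU arrays lay close together inside the wide spread of the other groups. The log2 difference was -0.13 ± 0.31 in UC against CC and 0.30 ± 0.32 in UU against CC (limma adjusted p = 0.655). UC against UU gave -0.43 ± 0.32 (limma adjusted p = 0.523). Without the 4 arrays low in Gpx5, UU against CC was -0.08.

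The other 3 Gstm1 probe sets gave log2 differences of -0.17 to 0.02 in UC against CC, -0.12 to 0.45 in UU against CC and -0.62 to 0.15 for UC over UU. The most negative of the last was that of 1425627_x_at, -0.62 ± 0.29 (limma adjusted p = 0.305). The dimmest, 1425626_at, pointed the other way from the rest in each comparison and lay within 1 SE of 0.

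Gstm2 1416411_at varied widely within UC and within CC. Its signals were 11966, 4632, 11628, 6428 and 4345 in UC, 14411, 14986, 10121 and 11799 in UU, and 12666, 3084, 12872, 6267 and 14476 in CC. The 4 lowest arrays, at 3084 to 6267, were the 4 low in Gpx5, and the other 10 ran from 6428 to 14986. There was no clear gap: UC replicate 4, with a Gpx5 signal of 67097, was at 6428. The log2 difference was -0.27 ± 0.40 in UC against CC and 0.57 ± 0.42 in UU against CC (limma adjusted p = 0.508). Between UC and UU it was -0.83 ± 0.42 (limma adjusted p = 0.338).

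Without those 4 arrays, UU against CC for Gstm2 turned to -0.07 and UC against UU gave -0.39. The mean log2 level of epididymal epithelium markers (10 of 22 on the array, 7 past the filter) ran from 7.32 to 11.56 in UC, 10.40 to 11.81 in UU and 7.35 to 12.06 in CC. With that level as a covariate, Gstm2 gave 0.21 in UU against CC and -0.35 for UC over UU. Within the 4 arrays, Gstm2 was at 4345 and 4632 in UC and 3084 and 6267 in CC. How much of the Gstm2 signal came from epididymal tissue was not tested further.

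**Figure D3:**
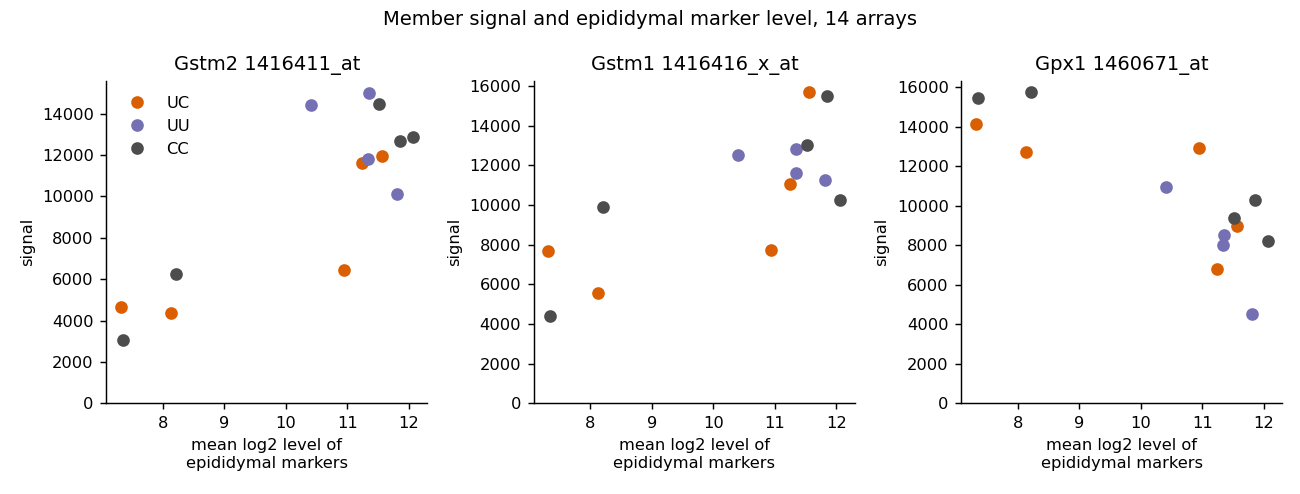
Signal (y axis, linear) of Gstm2, Gstm1 and Gpx1 on 14 arrays against the mean log2 level of epididymal epithelium markers (x axis), coloured by group (UC, UU, CC). The 4 arrays with marker levels under 9 hold Gstm2 signals of 3084 to 6267 and Gpx1 signals of 12733 to 15751.

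Mgst1 (chr6:138140527-138156755) encodes a membrane-bound transferase that also has peroxidase activity. Probe set 1415897_a_at ran from 34313 to 71112 in UC, 41825 to 52738 in UU and 39881 to 57757 in CC. The groups overlapped, UC holding both the highest and the lowest array. Log2 differences were 0.11 ± 0.19 in UC against CC and -0.09 ± 0.20 in UU against CC (limma adjusted p = 0.832). The UC against UU value was 0.20 ± 0.20 (limma adjusted p = 0.631). The second Mgst1 probe set, 1415898_at, fell below the signal filter, at 119.2 to 367.8 in UC, 209.3 to 404.5 in UU and 20.0 to 213.1 in CC. It was left out of the main fit. In the fit with no filter it gave 0.76 ± 0.42 in UC against CC and 1.23 ± 0.44 in UU against CC (limma adjusted p = 0.272). For UC against UU that fit gave -0.47 ± 0.44 (limma adjusted p = 0.688). Signals this dim are uncertain.

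Glo1 set UU apart from both other groups by 1 of its 3 probe sets. Glo1 (chr17:30592861-30612659) encodes glyoxalase 1. Probe set 1451240_a_at was at 2423, 2487, 2669.8, 2873 and 2105 in UC, 5052, 5031, 7200.3 and 4987 in UU, and 4766, 2479, 2235, 2207 and 2320.4 in CC. All UU arrays were above all UC and CC arrays, and CC replicate 1 alone of the other 10 came near them. The 14 signals left a gap between 2873 and 4766, with 9 arrays below it and 5 above.

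The mean of Glo1 1451240_a_at was 2512 ± 287 in UC (SD, n = 5) and 5568 ± 1089 in UU (n = 4). UC was lower than UU by a log2 difference of -1.13 ± 0.21, or 0.458-fold (limma adjusted p = 0.0439 over 13576 probe sets, 5 of 5 UC arrays below every UU array). In UC against UU the groups did not overlap for 2 of 16 members on the lower side, both of Glo1, and for 0 on the higher, where the backgrounds were 2.55% and 2.91%. The log2 difference stayed between -1.18 and -0.99 in 31 alternative fits, while the adjusted p ran from 0.0259 to 0.227 and passed in 11 of the 31. Leaving out CC replicate 3 or 5, UC replicate 2, 4 or 5, or any single UU array ended the call, at limma adjusted p of 0.0561 to 0.126. It was 0.227 without the 4 arrays low in Gpx5, 0.157 without the 3 of highest 3′/5′ ratio and 0.0908 without the 2 with Xist signal, at log2 differences of -1.04, -1.05 and -1.07.

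UU against CC gave 1.03 ± 0.21, or 2.05-fold, with a CC mean of 2801 ± 1104 (SD, n = 5; limma adjusted p = 0.102). Without CC replicate 1 the difference was 1.24 (limma adjusted p = 0.0209), and this was the only one of 31 alternatives in which it passed. UC against CC gave -0.09 ± 0.20, and 0.11 without CC replicate 1.

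The remaining Glo1 probe sets ordered the groups alike by their means. Probe set 1424109_a_at was at 858.0, 1943, 1828, 1593 and 1996 in UC, 3985, 3452, 1947 and 4237 in UU, and 5329, 1799, 1679, 2249 and 2207 in CC. Probe set 1424108_at was at 1427, 1978, 1939.9, 1016 and 1686 in UC, 3906, 2648, 2122 and 3003 in UU, and 3431, 1428, 1667, 1470.4 and 1869 in CC. CC replicate 1 was the highest CC array by all 3 probe sets, and UC lay below UU with no overlap by 1424108_at and with UU replicate 3 inside the UC range by 1424109_a_at. UU overlapped CC by both of these probe sets. CC replicate 1 was above every UU array by 1424109_a_at and above every UU array but UU replicate 1 by 1424108_at.

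In UC against UU the log2 difference was -1.04 ± 0.34 for 1424109_a_at (limma adjusted p = 0.164) and -0.85 ± 0.27 for 1424108_at (limma adjusted p = 0.156). In UU against CC it was 0.44 ± 0.34 (limma adjusted p = 0.523) and 0.60 ± 0.27 (limma adjusted p = 0.285), in the same order of probe sets. UC against CC gave -0.60 ± 0.32 and -0.25 ± 0.25. For 1424109_a_at that value was -0.98 without the 4 arrays low in Gpx5, -0.32 without the 3 of highest 3′/5′ ratio and -0.11 with that ratio as a covariate. Mean levels of tissue markers were also compared between UC and UU, and none passed adjustment. The mean level of white adipocyte markers was higher in UC than in UU by 0.92 in log2 units (two-sided exact permutation test, p = 0.0159, adjusted p = 0.0635 over 24 tests), and macrophage markers, all 18 of 18 past the filter, by 0.83 (two-sided exact permutation test, p = 0.0397, adjusted p = 0.106). The largest difference was that of epididymal epithelium markers, at -1.39 (two-sided exact permutation test, p = 0.302, adjusted p = 0.483). The part of these levels in the Glo1 difference was not tested.

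**Figure D4:**
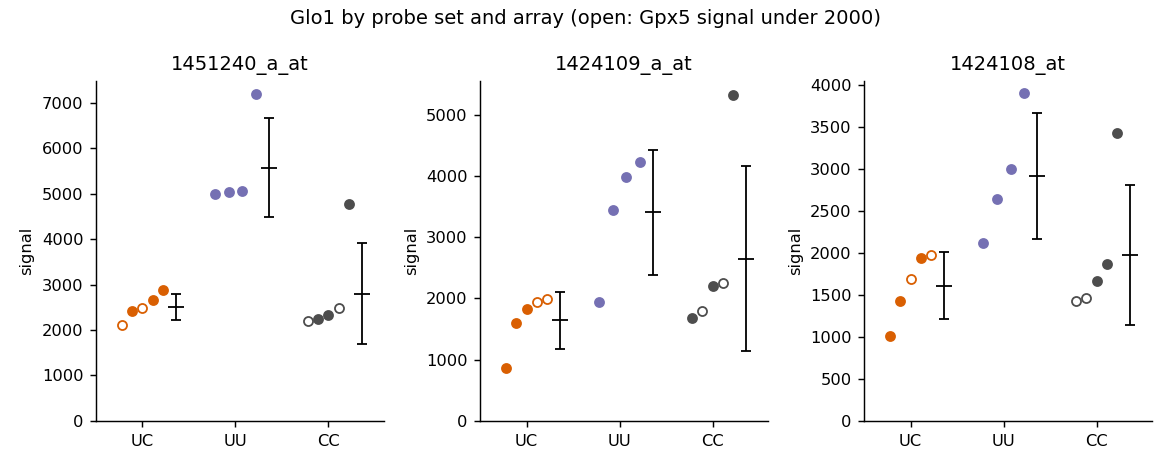
Signal (y axis, linear) of the 3 Glo1 probe sets, a point for each array of UC, UU and CC (x axis), with mean and SD; open points are the 4 arrays with a Gpx5 signal under 2000. The 4 UU points of 1451240_a_at lie at 4987 to 7200.3, above all UC points at 2105 to 2873, and CC replicate 1 is the high CC point in each panel.

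Probe sets of the same gene parted on the arrays with a high 3′/5′ ratio. The log2 ratio of Gsta3 1423437_at over 1423436_at was 1.07 to 1.99 on those 3 arrays and -0.55 to 0.49 on the other 11. For Gpx4, 1456193_x_at over 1451695_a_at was 0.69 to 1.22 against -1.09 to 0.27. For Glo1, 1451240_a_at over 1424109_a_at was 0.84 to 1.87 against -0.16 to 0.54, so for these 3 pairs the ranges did not overlap. For the second Glo1 pair, 1451240_a_at over 1424108_at, they did, at 0.75 to 1.75 on the 3 arrays against 0.31 to 0.92 on the others. The pairs of Gstm1 showed no such gap, with 1416416_x_at over 1448330_at at 0.19 to 0.37 on the 3 arrays and 0.11 to 0.68 on the others. The mean 3′/5′ ratio was 1.22 ± 0.36 in UC, 1.15 ± 0.64 in UU and 0.71 ± 0.33 in CC (log2, SD), a difference of 0.51 between UC and CC (two-sided exact permutation test, p = 0.0794, adjusted p = 0.19 over 24 tests).

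With the 3 arrays left out, Gsta3 1423437_at gave 0.70 in UC against CC and 0.57 in UU against CC, Gpx4 1456193_x_at gave 0.69 in UC against CC, and Gpx3 gave -0.86. With the ratio as a covariate the values were 0.80, 0.54, 0.65 and -0.85, in the same order. The dim Gsta3 probe set moved to 0.48 in UC against CC and 0.29 in UU against CC under that covariate, both above 0. For Gpx4 1451695_a_at, UC against CC turned to 0.31 under the covariate and 0.12 without the 3 arrays, the side on which 1456193_x_at lay. Where each probe set lies along its transcript was not used here.

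**Figure D5:**
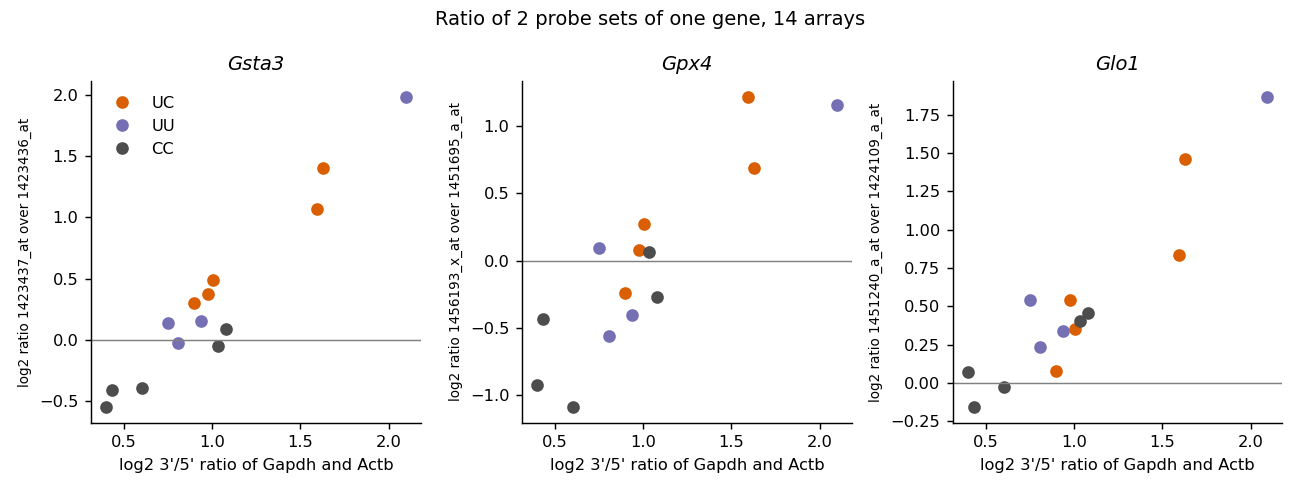
Log2 ratio of the signals of 2 probe sets of Gsta3, Gpx4 and Glo1 (y axis) on 14 arrays against the log2 3′/5′ ratio of Gapdh and Actb (x axis), coloured by group (UC, UU, CC). The 3 arrays with a 3′/5′ ratio of at least 1.5 hold the highest ratios in each panel, 1.07 to 1.99 for Gsta3.

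Liver markers (16 of 18 on the array, 9 past the filter, Cyp2e1 and Rbp4 the brightest) had mean log2 levels of 8.98 to 12.14 in UC, 9.01 to 9.31 in UU and 8.30 to 8.94 in CC. The difference was 1.27 between UC and CC (two-sided exact permutation test, p = 0.00794, the smallest possible, adjusted p = 0.0635 over 24 tests). The level is a mean over all 16 on the array, with those below the filter included. Of the 9 past it, 8 were above 0 in UC against CC and 7 in UU against CC. The 2 brightest did not all follow: Cyp2e1 gave -0.54 and -0.29, and Rbp4 0.24 and -0.56, in that order. With the liver level as a covariate, UC against CC was -1.19 for Gpx3 and 0.73 for Gsta3 1423437_at. Mgst1 1415897_a_at then gave -0.08, against 0.11 without the covariate. The liver level separated both undernourished groups from CC, as Gsta3 1423437_at did, and its part in these differences was not tested further.

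The genes whose brightest probe sets followed a member most closely across the 14 arrays were read from 8281 genes, by Pearson's r of log2 signals, as a description of arrays that share tissue makeup and RNA quality. Gpx3 was followed most closely by Msantd2 (r = 0.795), then by Pan2, Slc27a1, a fatty acid transporter, Rpl22, a ribosomal protein gene, and Cryl1, the last at 0.763. For Gsta3 it was H2aj, a histone gene, at 0.883, then Ints11, Atp6v0b, Dynll1 and Elovl1, a fatty acid elongase, at 0.836 to 0.843. For other members the closest genes were looked up after their values were seen. Gstm2 was nearest to the epithelial genes Krt18 (r = 0.979) and Cldn3 (0.978), Gstm1 to Penk (0.953) and to the related transferase Gstm5 (0.949), Mgst1 to the catalase gene Cat (0.924), and Glo1 to Foxo3 (0.842).

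No gene of 7 lists around these enzymes was called by limma in any of the 3 comparisons. Lists were counted over the brightest probe set of each gene. The other glutathione peroxidases had 4 members tested, with 1 above 0 in UC against CC and 2 in UU against CC, and 2 when UC was set against UU. Gpx7, a peroxidase of the endoplasmic reticulum, gave -0.73 ± 0.25 in UU against CC (limma adjusted p = 0.195) and 0.60 ± 0.25 in UC against UU (limma adjusted p = 0.257). The list of other transferases had 8 of 19 above 0 in each comparison, with medians of -0.10, -0.03 and -0.10. It also counts Alox5ap, Clic1 and Clic4, which are not named as glutathione transferases. Alox5ap, of leukotriene synthesis, gave -1.06 ± 0.32 in UU against CC (limma adjusted p = 0.165) and 0.98 ± 0.32 in UC against UU (limma adjusted p = 0.166).

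Genes of glutathione synthesis, reduction and breakdown had 13 of 21 above 0 in UC against CC (median 0.04), 9 in UU against CC (median -0.02) and 10 in UC against UU (median -0.03). Over all 8281 genes the medians were -0.01, 0.06 and -0.07, in that order. Pgd, which makes NADPH for the reduction of glutathione, gave 0.69 ± 0.19 in UC against CC (limma adjusted p = 0.437) and 0.71 ± 0.20 in UC against UU (limma adjusted p = 0.137). Cbs, of cysteine synthesis, gave 0.88 ± 0.24 in UU against CC (limma adjusted p = 0.145).

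Of the glyoxalase and aldehyde list, 8 of 15 genes were above 0 in UC against CC and 9 in UU against CC, and 5 when UC was set against UU, with medians of 0.01, 0.06 and -0.27. Hagh, glyoxalase 2, which takes over the product of Glo1, gave 0.23 ± 0.14 in UC against CC (limma adjusted p = 0.605). Among other peroxide and superoxide enzymes, 8 of 17 were above 0 in UC against CC and 4 in UU against CC, and 11 when UC was set against UU. Sod3, the extracellular superoxide dismutase, had the smallest p of that list in UU against CC, at -1.51 ± 0.35 (limma adjusted p = 0.115), and in UC against UU, at 1.34 ± 0.35 (limma adjusted p = 0.103).

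Nrf2 and its targets outside the members had 10 of 19 genes above 0 in UC against CC and 7 in UU against CC, and 10 when UC was set against UU. Me1, malic enzyme, another source of NADPH, gave 1.25 ± 0.30 in UC against UU (limma adjusted p = 0.0827). Gclm, the modifier subunit of the enzyme that limits glutathione synthesis, gave 0.56 ± 0.22 in UU against CC (limma adjusted p = 0.236) and -0.46 ± 0.22 in UC against UU (limma adjusted p = 0.31). Selenoproteins and the genes that insert selenocysteine had 10, 7 and 9 of 16 above 0 in those comparisons. Sephs2, which makes the selenium donor for selenocysteine, gave 0.83 ± 0.30 in UC against CC (limma adjusted p = 0.494) and 0.83 ± 0.31 in UU against CC (limma adjusted p = 0.224).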

How the data were processed

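RNA of epididymal fat from 14 mice (5 UC, 4 UU, 5 CC) was measured on single-channel Affymetrix arrays, and samples were grouped by their labelled assignment. The deposited intensity signals are on a linear scale, and per the submitters' processing notes the authors used GCOS 1.3 with MAS5. Trimmed of 2% at either end, the mean signal of every array was 1500.45 to 1500.57. Detection calls and litters were not used here, so no probe set was given as below background. The number of arrays limits the precision: the median SE over probe sets was 0.22 (log2) in UC against CC and 0.23 in either comparison with UU. Within groups, arrays correlated at 0.876 to 0.951 (log2).

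Of 22690 probe sets, 64 were controls, 20380 had 1 gene symbol in the platform annotation, 691 several and 1555 none. Symbols were updated through Entrez identifiers for 20351 and kept for 29. Gene positions are RefSeq's on GRCm38.p6. Values were transformed as log2(signal + 32), and every probe set past the filter was tested on its own. All 14 arrays entered one fit in limma 3.58.1 (R 4.3.3, lmFit and eBayes with a trend, 11 residual degrees of freedom) with 3 two-sided contrasts, Benjamini-Hochberg adjustment over 13576 probe sets and a threshold of 0.05. Errors of log2 differences are moderated standard errors. Tissue marker levels were compared by exact permutation tests, which cannot go below p = 0.00794 here, adjusted over 24 tests.

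The members, the gene lists, the motifs, the arrays left out and the alternatives were chosen with earlier results of these data known. Beside the members, genes could be named where they had the smallest p in a direction in a pathway list, and some of these are named. The 5 genes nearest to Gpx3 and to Gsta3 and the 2 brightest of marker lists were also named, and those nearest to other members were added after their values were seen. On simulated arrays with 200 changed probe sets among 13576, the fit for UC against UU recovered 50.8% of 2-fold changes and 92.4% of 4-fold ones, and 4.41% of its calls were false. For UC against CC these shares were 55%, 93% and 4.27%, and for UU against CC 51.8%, 93.2% and 3.85%. The simulated noise was normal and drawn separately for each probe set, with the same spread on every array. Differences in tissue makeup and RNA quality between arrays were not simulated, so these shares need not hold for the real arrays. Alternatives covered the pseudocount, the filter, the choice of probe set, array weights, median centring, quantile normalization, the variance trend, fits of 2 groups, a replicate block, each array left out, the sets of arrays that stand apart left out, and marker levels or the 3′/5′ ratio as covariates. Figures were drawn with matplotlib 3.10.9.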

Additional observations from a re-analysis of the deposited data

Results flagged for a closer look

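Within groups, 5 of 48 combinations of group and tested probe set held an array far from its fellows by Dixon's criterion, where chance gives about 2.4. For Glo1 1451240_a_at, UU replicate 3 was at 7200.3 while the other UU arrays were at 4987 to 5052, and CC replicate 1 was at 4766.4 while the other CC arrays were at 2207 to 2479. For Glo1 1424109_a_at, UC replicate 1 was at 858.0, the others of UC at 1593 to 1996, and CC replicate 1 at 5329.0, the others of CC at 1679 to 2249. For Gsta3 1423436_at, UC replicate 1 was at 432.6, the others of UC at 723.1 to 840.1. CC replicate 1 was thus far above its group by 2 probe sets of the same gene. UU replicate 3 and UC replicate 1 are among the 3 arrays of highest 3′/5′ ratio, and the part of that ratio was not tested.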

How the results depend on the processing

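Of 1461 values of members under alternatives, 1376 kept their direction and side of the threshold, 20 lost and 1 gained a call, and 15 uncalled ones kept their direction but moved by more than 1 SE of the fitted difference. A further 49 changed sign, in 19 of 48 differences, and in 48 of the 49 the fitted value lay within 1 SE of 0. The other was Gstm2 in UU against CC, at -0.071 without the 4 arrays low in epididymal transcripts. The count of probe sets called over the whole array varied widely. In UC against CC it was 0, and 1 without those 4 arrays. In UU against CC it was 0, and 1 without the variance trend, 27 with array weights, 5 with the replicate block, 1 without the arrays with Xist signal, 1 without the arrays low in epididymal transcripts, 5 with the epididymal level as a covariate and 0 to 2 with single arrays left out. In UC against UU it was 60, and 16 with no filter, 131 with median centring (129 higher, 2 lower), 0 without the trend, 1 with only the 2 groups compared, 1 without the Xist arrays, 1 without the low epididymal arrays, 3 without the arrays of highest 3′/5′ ratio, 0 with the epididymal or the liver level as a covariate, 140 with the 3′/5′ ratio (120 higher, 20 lower) and 0 to 109 with single arrays left out. The causes were not tested. Median centring moved the median over all probe sets in UC against UU from -0.069 to 0.068. The labels state no pairing of samples by replicate number. Same-numbered deviations from the group means correlated at -0.272 to 0.395. They were not set beside those of differently numbered arrays, so they do not decide whether the numbers pair samples. The replicate block gave 77 calls in UC against UU. Signal over background could not be judged without detection calls, so dim probe sets such as Gsta3 1423436_at are the least certain.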
